A study of Mus musculus with 9 samples.

Results

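Transcripts of 10 macrophage genes were compared between livers of miR-122 knockout (KO) mice and livers of floxed littermate controls (WT). Of these genes, 5 mark the resident macrophage of the liver, the Kupffer cell (Clec4f, Timd4, Vsig4, Cd5l and Marco). The other 5 mark macrophages more broadly or macrophages of diseased tissue (Lyz2, Cd68, Trem2, Gpnmb and Itgax). They were picked by gene symbol, and all 10 were found among 30519 listed transcripts, where each gene is represented by 1 transcript. In KO livers 7 of the 10 were called higher and none was called lower, against 21.4% called higher and 14.5% called lower of 10950 tested transcripts. The resident genes Clec4f, Timd4, Vsig4 and Cd5l stood at 1.46 to 1.59 times the WT level, Marco at 2.75 times, and Lyz2 and Cd68 at 2.35 times. Itgax, too low for the fit, averaged 5.06 times the WT level, while Trem2 and Gpnmb were not called.

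The KO livers came from 1 female (replicate 1) and 3 males (replicates 2 to 4). The WT livers came from 3 females (replicates 1 to 3) and 2 males (replicates 4 and 5), and all animals were 6 weeks old. The control animals carry the floxed allele. Neither the Cre driver of the deletion nor the strain is stated in the labels. The RNA was polyA-selected from pulverised whole liver, so macrophage transcripts were measured within the RNA of hepatocytes and all other liver cells. In such bulk RNA a change in the number of macrophages and a change in RNA per macrophage cannot be told apart. miR-122 itself was not analysed here, so the genotypes rest on the labels. Levels are the authors' normalised, length-scaled abundances, referred to as units below, and estimated reads on the listed transcripts came to 15.4 to 22.1 M (mega) in KO and 12.2 to 19.7 M in WT libraries. Summed levels of 10 hepatocyte markers, albumin among them, were 54843 to 70966 units in KO and 46929 to 112770 units in WT livers.

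Kupffer cells are long-lived macrophages that sit inside the liver sinusoids, clear particles, microbes and dying cells from portal blood, and are seeded mainly before birth. When they are lost or the liver is injured, blood monocytes enter through signals such as the chemokine Ccl2 and its receptor Ccr2, and can become macrophages that carry few of the resident markers at first. In fatty and fibrotic mouse liver a lipid-associated macrophage state has been described, marked by Trem2, Gpnmb, Cd9 and Spp1. Macrophage identity in general depends on the transcription factor PU.1, the product of Spi1, and on the growth factor receptor Csf1r.

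The promoters of the called genes that hold the core word of the PU.1 motif are shown first, since PU.1 acts throughout the macrophage lineage. The windows run from 250 bases before to 50 bases after each RefSeq start (GRCm38.p6), and the 10 genes matched 10 windows. The word GAGGAA, searched on both strands, lay in 5 of the 10 windows (Vsig4, Cd5l, Marco, Cd68 and Trem2), against 28.3% of 32851 RefSeq windows of the same length. In the lines below, printed 5′ to 3′ along each gene, capitals mark GAGGAA or its complement on the other strand.
Vsig4, chrX:96293389-96293688, minus strand: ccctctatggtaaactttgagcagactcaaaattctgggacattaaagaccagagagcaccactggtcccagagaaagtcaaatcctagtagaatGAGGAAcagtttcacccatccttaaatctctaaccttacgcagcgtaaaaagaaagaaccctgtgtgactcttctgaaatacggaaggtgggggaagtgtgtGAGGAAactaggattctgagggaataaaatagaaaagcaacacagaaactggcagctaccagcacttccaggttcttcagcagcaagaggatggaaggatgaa
Cd5l, chr3:87357631-87357930, plus strand: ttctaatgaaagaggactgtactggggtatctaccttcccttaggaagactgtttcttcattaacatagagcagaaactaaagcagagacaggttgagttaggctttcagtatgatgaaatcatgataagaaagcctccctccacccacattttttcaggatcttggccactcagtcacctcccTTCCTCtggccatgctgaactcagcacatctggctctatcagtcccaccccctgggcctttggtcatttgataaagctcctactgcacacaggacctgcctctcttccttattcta
Marco, chr1:120504975-120505274, minus strand: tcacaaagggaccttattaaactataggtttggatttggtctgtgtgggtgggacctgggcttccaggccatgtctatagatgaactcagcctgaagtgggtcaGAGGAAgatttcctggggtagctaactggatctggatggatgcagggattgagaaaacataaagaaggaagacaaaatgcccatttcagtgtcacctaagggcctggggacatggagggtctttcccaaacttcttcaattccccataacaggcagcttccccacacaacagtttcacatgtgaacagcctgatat
Cd68, chr11:69666121-69666420, minus strand: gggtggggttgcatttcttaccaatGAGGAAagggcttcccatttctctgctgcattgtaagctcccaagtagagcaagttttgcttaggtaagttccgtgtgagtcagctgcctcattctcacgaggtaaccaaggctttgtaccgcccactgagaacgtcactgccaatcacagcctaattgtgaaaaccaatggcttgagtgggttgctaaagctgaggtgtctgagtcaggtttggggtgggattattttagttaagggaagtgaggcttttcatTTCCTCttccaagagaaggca
The Vsig4 words began 155 and 53 bases upstream of the start, the Marco word 146 and the Cd5l word 66 bases upstream. Cd68 held words 225 bases upstream and 29 bases downstream of its start. The windows of Clec4f, Timd4, Lyz2, Gpnmb and Itgax held no GAGGAA, and the word CACGTG, an E-box that MITF and TFE factors can bind, lay in 0 of the 10 windows, against 7.15% of all windows. These are letter matches, not measured binding.

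Clec4f encodes a C-type lectin that in mouse is made by Kupffer cells almost alone. Its level was 79.1, 70.0, 77.8 and 60.6 units in KO replicates 1 to 4, against 58.6, 49.9, 48.5, 47.3 and 42.4 units in WT replicates 1 to 5. Every KO liver lay above every WT liver, although the lowest KO and the highest WT liver were close. The means were 71.9 ± 8.49 units in KO and 49.3 ± 5.88 units in WT livers (SD, n = 4 and 5), a log2 fold change of 0.53 (SE 0.11, limma adjusted p = 0.00478). An estimated 2759 to 4264 reads per KO library and 957 to 2349 reads per WT library stand behind these values.

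Timd4 encodes TIM-4, a phosphatidylserine receptor for apoptotic cells that marks long-resident macrophages. It reached 8.34, 5.88, 7.41 and 7.85 units in KO livers, against 5.41, 4.42, 4.49, 4.08 and 4.79 units in WT livers, again with no overlap. The means were 7.37 ± 1.07 units in KO and 4.64 ± 0.4998 units in WT livers (SD, n = 4 and 5), a log2 fold change of 0.57 with a limma adjusted p of 0.00303. In males alone, 3 KO against 2 WT, Timd4 averaged 7.05 units in KO and 4.44 units in WT livers and was no longer called (limma adjusted p = 0.0569).

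Vsig4 encodes CRIg, the complement receptor with which Kupffer cells catch C3-coated microbes. Its level was 47.5, 34.4, 45.8 and 41.1 units in KO livers, against 34.1, 28.6, 31.5, 24.3 and 23.9 units in WT livers. The lowest KO liver (replicate 2) and the highest WT liver (replicate 1) nearly met. Vsig4 averaged 42.2 ± 5.86 units in KO and 28.5 ± 4.46 units in WT livers (SD, n = 4 and 5), and the log2 fold change was 0.55 with a limma adjusted p of 0.00993.

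Cd5l encodes AIM, a secreted scavenger-receptor cysteine-rich protein of tissue macrophages. It reached 99.7, 74.5, 118.8 and 90.0 units in KO livers, against 81.7, 69.2, 55.8, 51.3 and 59.95 units in WT livers. Cd5l was the 1 resident gene whose groups overlapped, since KO replicate 2 lay below WT replicate 1. The means were 95.8 ± 18.5 units in KO and 63.6 ± 12.1 units in WT livers (SD, n = 4 and 5), a log2 fold change of 0.58 with a limma adjusted p of 0.0204. This call was the least firm of the 7: the adjusted p was 0.0502 without KO replicate 1, 0.0598 without KO replicate 3 and 0.0619 in males alone.

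Marco encodes a collagen-like scavenger receptor that binds bacteria and particles. It stood at 9.81, 4.80, 7.93 and 5.17 units in KO livers, against 4.28, 2.83, 2.12, 1.42 and 1.95 units in WT livers. KO replicates 1 and 3 were high, while KO replicates 2 and 4 lay just above WT replicate 1. The mean of 6.93 ± 2.38 units in KO livers was 2.75 times the mean of 2.52 ± 1.10 units in WT livers (SD, n = 4 and 5), with a log2 fold change of 1.17 (SE 0.25, limma adjusted p = 0.00576). Marco is a low transcript, with an estimated 179 to 406 reads per KO library and 27.0 to 131 reads per WT library. Without KO replicate 1 and WT replicate 1, the livers highest in Marco within each genotype, a setting added after the values were seen, 7 of the 8 tested genes were still called higher.

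**Figure D1:**
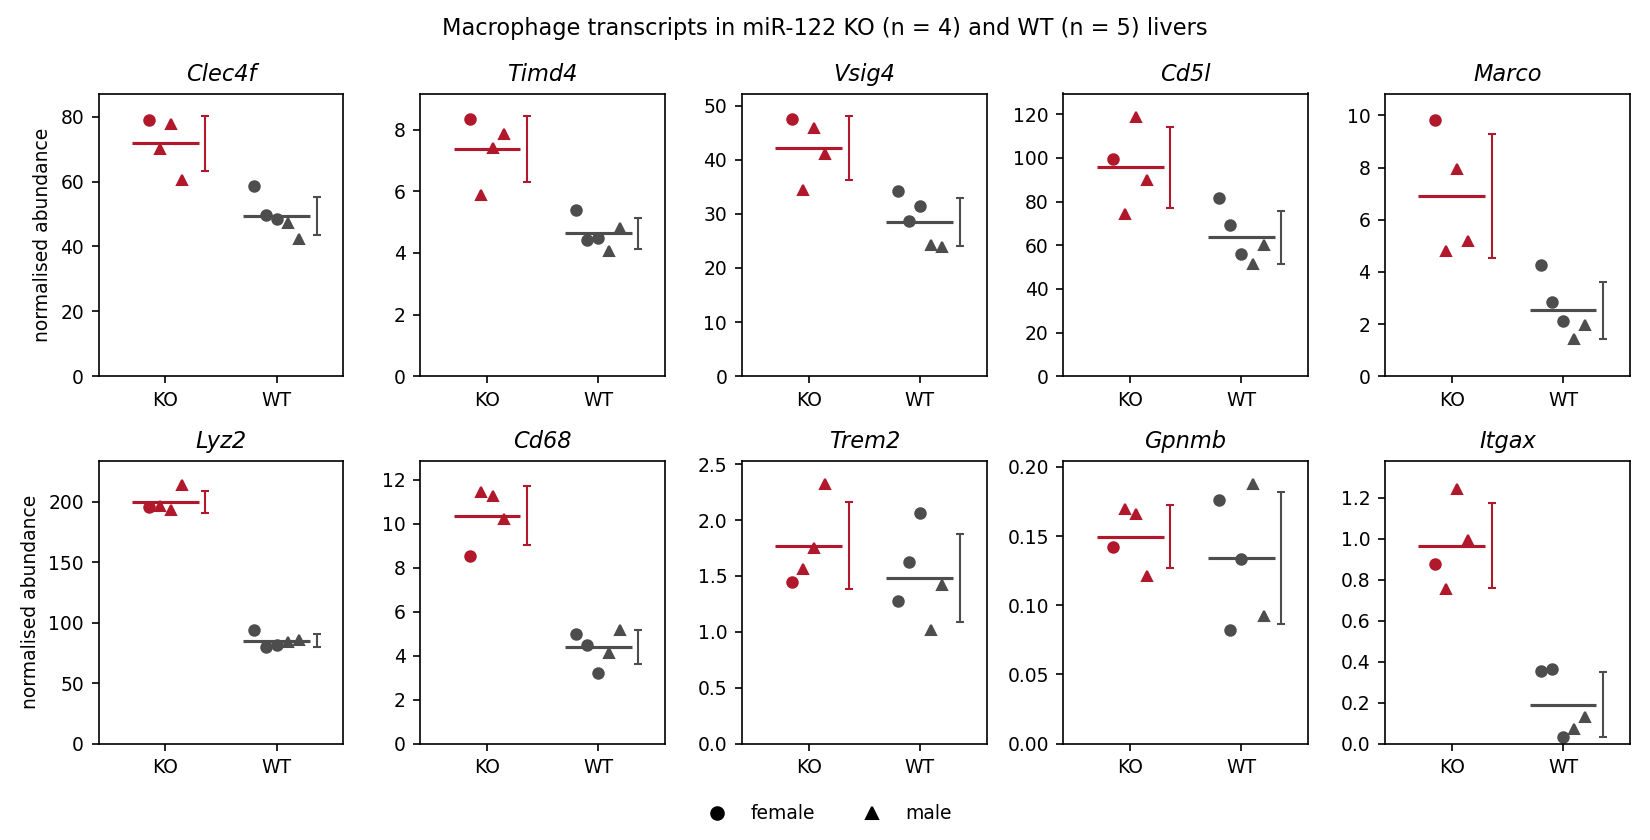
Normalised abundance (units, axes from 0) of the 10 genes in each KO liver (red, left) and WT liver (grey, right), with circles for females, triangles for males, a line at the mean and a bar of 1 SD. Clec4f, Timd4, Vsig4, Marco, Lyz2, Cd68 and Itgax have every KO liver above every WT liver, while Cd5l, Trem2 and Gpnmb overlap.

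Among the broader markers, Lyz2 encodes lysozyme M, made by macrophages, monocytes and neutrophils. Its level was 195.5, 196.6, 193.3 and 213.7 units in KO livers, against 93.7, 79.9, 81.9, 83.9 and 85.7 units in WT livers. The groups were far apart and each was tight: the SD was 4.70% of the mean in KO and 6.24% in WT livers, the smallest of the 10 genes. Lyz2 averaged 199.8 ± 9.39 units in KO and 85.0 ± 5.31 units in WT livers (SD, n = 4 and 5), a log2 fold change of 1.22 (SE 0.07, limma adjusted p = 3.23e-06). The near copy Lyz1 was listed at 0.108 to 0.425 units in KO and 0 to 0.210 units in WT livers, and reads common to the pair may have been split between them.

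Cd68 encodes a lysosomal membrane glycoprotein of macrophages in general. It stood at 8.52, 11.4, 11.3 and 10.2 units in KO livers, against 4.98, 4.51, 3.23, 4.13 and 5.17 units in WT livers. The lowest KO liver, replicate 1, was well above the highest WT liver, replicate 5. The means were 10.4 ± 1.34 units in KO and 4.40 ± 0.769 units in WT livers (SD, n = 4 and 5), a log2 fold change of 1.08 (SE 0.13, limma adjusted p = 0.000227).

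Itgax encodes CD11c, an integrin chain of dendritic cells and of some activated macrophages. Its level was 0.878, 0.756, 1.24 and 0.993 units in KO livers, against 0.356, 0.362, 0.0330, 0.0726 and 0.132 units in WT livers. Every KO liver lay above every WT liver, and an exact two-sided permutation test gave p = 0.0159, the smallest that 4 against 5 livers allow. The estimated reads behind it were 61.6 to 79.8 per KO library, and 2.00 to 23.9 per WT library. Its mean over all livers was below the minimum of 1 unit. With a minimum of 0.1 it was called higher (log2 fold change 0.73, limma adjusted p = 0.00133). With a minimum of 0.1 and a pseudocount of 0.1, a setting added after the values were seen, the log2 fold change was 2.03 (95% interval 1.12 to 2.95, limma adjusted p = 0.00498).

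Trem2 encodes a lipid-sensing receptor of macrophages. Its level was 1.44, 1.56, 1.75 and 2.32 units in KO livers, against 1.27, 1.63, 2.07, 1.02 and 1.42 units in WT livers, and the groups overlapped widely. The log2 fold change was 0.16 (95% interval -0.16 to 0.49, limma adjusted p = 0.410). The listed Trem2 transcript is annotated as a retained intron form of 4784 bases in GENCODE M21, where 2 of the gene's 4 transcripts are coding. The coding forms were not analysed here, so these values do not give the level of Trem2 mRNA. With every library scaled to the same total, Trem2 was called higher (log2 fold change 0.41, limma adjusted p = 0.0409), against a shift of 0.36 in the median of all tested transcripts on that scale.

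Gpnmb encodes a transmembrane glycoprotein of lysosome-rich macrophages. It was at 0.121 to 0.169 units in KO and 0.0824 to 0.187 units in WT livers, from 8.63 to 12.9 estimated reads per KO library and 3.25 to 11.1 per WT library. The groups overlapped completely on the KO side (exact two-sided permutation p = 0.571). At this depth no difference was detectable.

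In all, 8 of the 10 genes passed the minimum of 1 unit, each with a mean above 1 in both genotypes. Of these 8, 7 were called higher and 0 lower, with a median log2 fold change of 0.57. Over all 10950 tested transcripts 21.4% were called higher and 14.5% lower, and the median was 0.03. Of the 8, 6 had every KO liver above every WT liver, which held for 19.0% of all tested transcripts. Of the 10 genes, 8 had q of at most 0.05 and were higher in KO in the authors' deposited table, Itgax among them (q = 0.0018), against 13.6% of 13540 transcripts with a q. In that table the smallest q was that of Lyz2 (3.6e-27), while Trem2 and Gpnmb had q of 0.67 and 0.957. Marco, Lyz2 and Cd68 ranked high among all transcripts: 3.87%, 3.58% and 4.80% of them had a larger log2 fold change. For Clec4f, Timd4, Vsig4 and Cd5l that share was 14.0% to 15.7%.

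Deposited values sum to less in KO than in WT libraries, 0.711 to 0.869 M units in KO against 0.873 to 1.17 M units in WT. Scaling every library to the same total raised the log2 fold changes of the 8 tested genes to a median of 0.96, and 8 of 8 were called higher on that scale, as were 45.0% of all tested transcripts. The median of all tested transcripts rose to 0.36 there. Relative to the median of all transcripts, the median of the 8 genes was 0.55 on the deposited scale and 0.60 with equal totals. With median ratio scaling it was 0.54, and 7 of 8 were called higher.

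**Figure D2:**
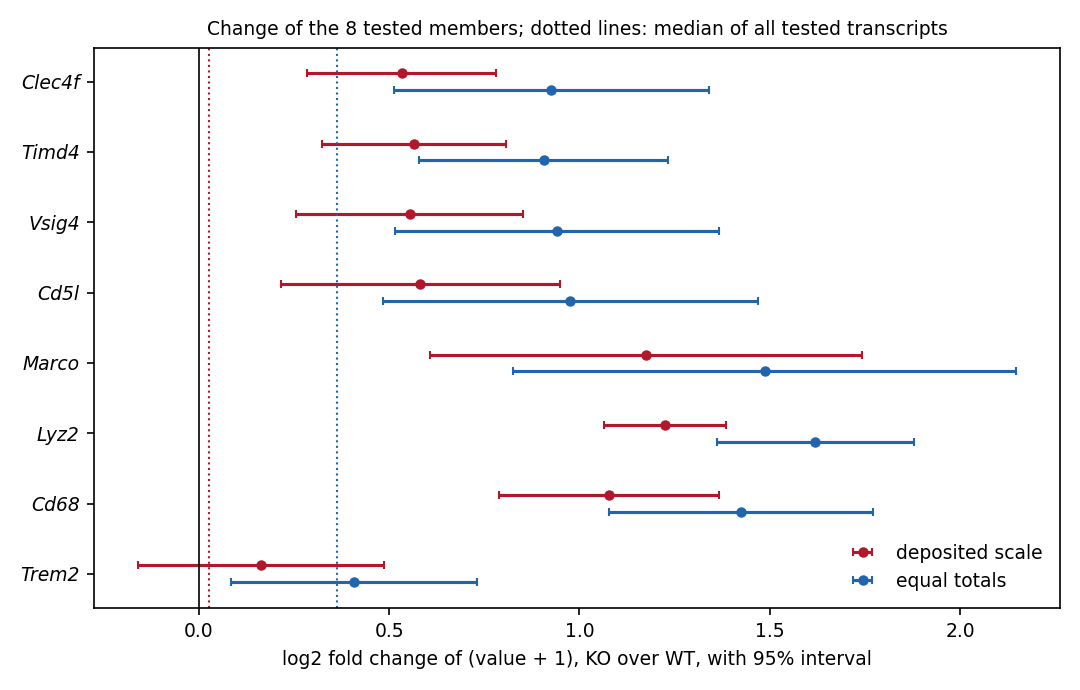
Log2 fold change of (value + 1), KO over WT, with its 95% interval for the 8 tested genes, on the deposited scale (red, upper) and after scaling to equal totals (blue, lower); dotted lines mark the median of all tested transcripts, 0.03 and 0.36. Intervals of 7 genes lie above 0 on the deposited scale, and that of Trem2 spans 0.

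The members were next set against Clec4f in the same liver, which cancels any scaling between libraries. This comparison was chosen after the levels were seen. The fold given is the KO over WT ratio of the geometric means. Timd4, Vsig4 and Cd5l stood near the same proportion to Clec4f in both genotypes, with folds of 1.09, 1.02 and 1.03 (exact two-sided permutation p = 0.429, 0.730 and 0.778). Vsig4, for instance, lay at 49.1% to 67.9% of Clec4f in KO and 51.3% to 64.9% in WT livers. Lyz2 lay at 247% to 353% of Clec4f in KO livers, against 160% to 202% in WT livers, with no overlap (fold 1.61, exact p = 0.0159). Cd68 lay at 10.8% to 16.9% of Clec4f in KO and 6.66% to 12.2% in WT livers (fold 1.63, exact p = 0.0317). Marco lay at 6.86% to 12.4% of Clec4f in KO and 3.01% to 7.30% in WT livers (fold 1.94, exact p = 0.0317). Itgax lay at 1.08% to 1.64% of Clec4f in KO and 0.0679% to 0.727% in WT livers (fold 4.93, exact p = 0.0159). Trem2 and Gpnmb had folds below 1, 0.83 and 0.80 (exact p = 0.413 and 0.254). None of the 9 ratios passed 0.05 after adjustment over the 9 (Benjamini-Hochberg adjusted exact p = 0.0714 for Marco, Lyz2, Cd68 and Itgax), and the smallest p that 4 against 5 livers allow is 0.0159.

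**Figure D3:**
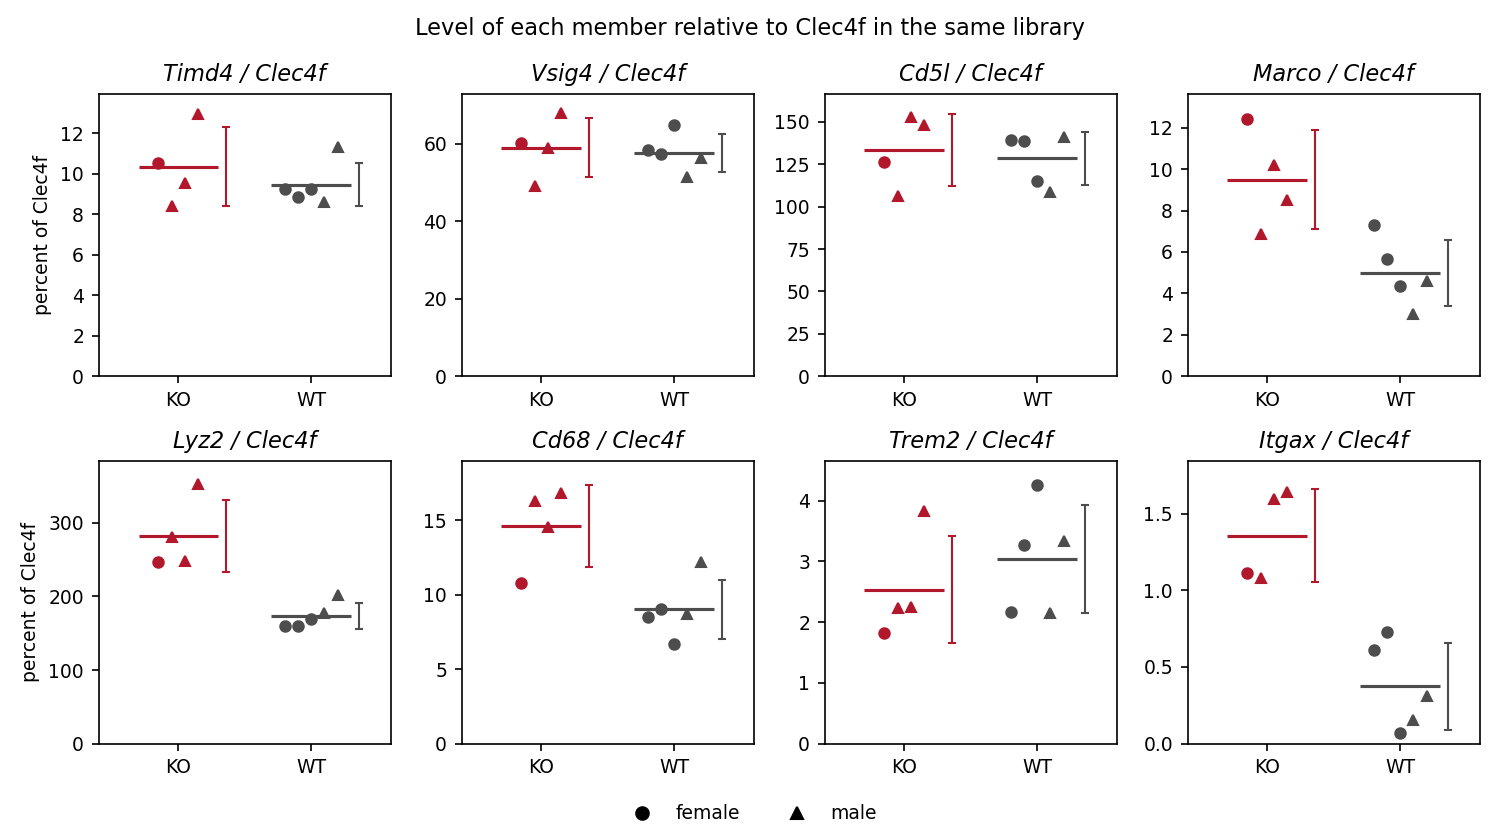
Level of 8 members as a percent of Clec4f in the same liver, KO (red, left) and WT (grey, right), with circles for females, triangles for males, a line at the mean and a bar of 1 SD; axes start at 0. Timd4, Vsig4 and Cd5l overlap between genotypes, and Lyz2 and Itgax do not.

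The order of the levels, which are scaled for transcript length, was Lyz2, Cd5l, Clec4f and Vsig4 in the means of both genotypes. Cd5l was above Clec4f in 4 of 4 KO and 5 of 5 WT livers. Below them, Cd68 exceeded Timd4 in 4 of 4 KO livers and in 3 of 5 WT livers. Marco exceeded Timd4 in 2 of 4 KO and 0 of 5 WT livers. Among WT livers Cd68 and Timd4 did not differ beyond their spread.

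Livers of 1 genotype varied together in the resident genes. Over the 9 livers, deviations of log2(value + 1) from the genotype mean correlated with Pearson r of 0.31 to 0.87 over the 10 pairs of resident genes, with Marco and Cd5l highest and Clec4f and Timd4 lowest. WT replicate 1 was the highest WT liver in 5 of the 5 resident genes. KO replicate 1 was the highest KO liver in 4 of them, and KO replicate 2 the lowest in 4. Cd68 did not follow this order: its r with the resident genes ran from -0.37 to 0.27, and KO replicate 1, the highest in Clec4f, Timd4, Vsig4 and Marco, was the lowest KO liver in Cd68. Lyz2 had r of 0.00 with Clec4f and 0.52 with Timd4, while Itgax had r of 0.89 with Cd5l. These r describe 9 shared libraries, with any difference in depth or scaling between them included. WT replicate 1 had the smallest sum of deposited values among WT libraries, 0.873 M units. Clec4f was lowest in the library with the largest sum of each genotype, KO replicate 4 (0.869 M units) and WT replicate 5 (1.17 M units). KO replicate 2, lowest in 4 resident genes, had a sum of 0.759 M units, which was not the largest. The part of the library sums in these r was not tested.

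**Figure D4:**
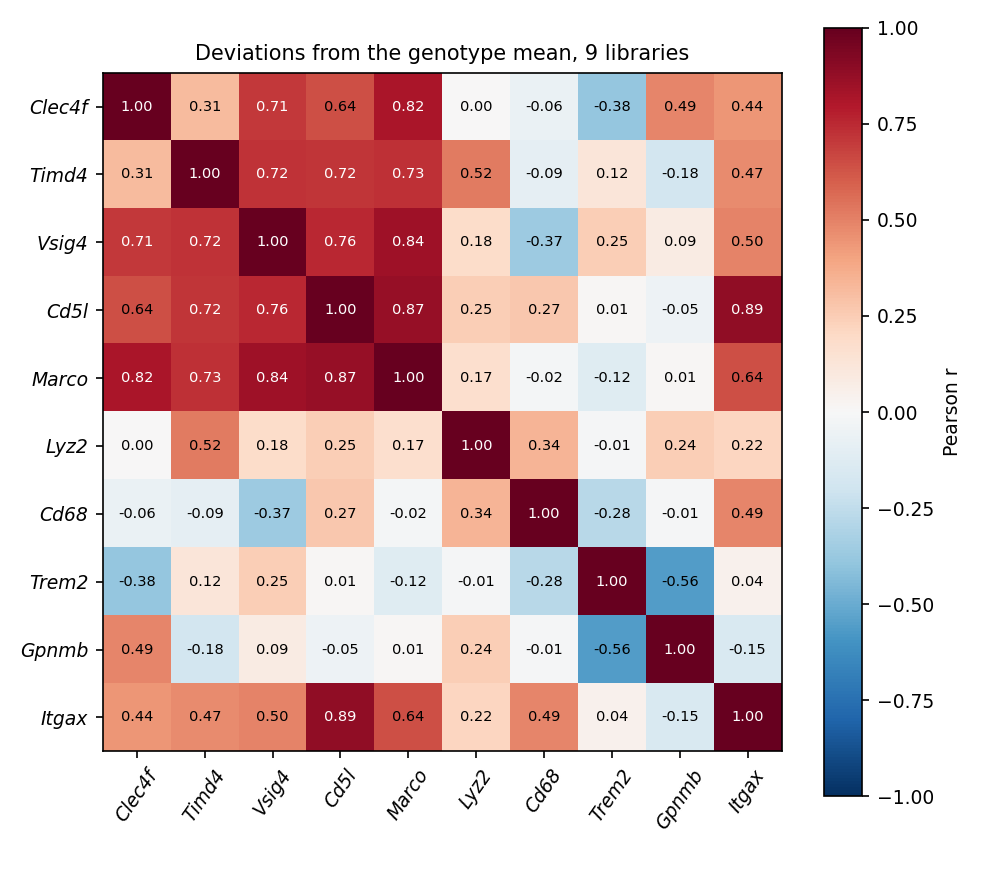
Pearson r between the 10 genes of deviations of log2(value + 1) from the genotype mean over the same 9 livers, colour scale from -1 (blue) to 1 (red). The 5 resident genes form a block of 0.31 to 0.87 at the upper left, and Cd68 lies between -0.37 and 0.27 with them.

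Each of Clec4f and Cd68 was then compared with 10233 tested transcripts, the other tested members included. Numbered predicted genes, clones, pseudogenes and transcripts without a gene symbol were left out. Most like Clec4f in their deviations were Smg1 and Atrx with r of 0.97 and Ccnd2, Rprd2 and Wdr31 with r of 0.96. None of these 5 was called between genotypes, Ccnd2 having a log2 fold change of 0.21 (limma adjusted p = 0.188). Most like Cd68 were Pak4 (r = 0.99), Ilk (0.98), Flna (0.97), Ccdc17 (0.95) and Cherp (0.95). Of these, Pak4 was called higher (4.05 ± 0.478 units in KO and 2.77 ± 0.481 units in WT livers, SD, n = 4 and 5, limma adjusted p = 0.0181) and so was Flna (limma adjusted p = 0.0443). In all 41 of the 10233 transcripts had r above 0.9 with Clec4f and 19 with Cd68. Among the resident genes Marco was most like Clec4f, with r of 0.82, below the 5 named. The named genes are the highest of 10233 r over 9 livers, and how many would reach 0.9 by chance was not tested.

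Sex was unevenly spread over the genotypes. The results by sex count WT replicate 3 as female, as its label says, although its column in the deposited table is named male. In that library the Y-linked gene Ddx3y was at 0.0422 units, against 13.2 to 28.0 units in the 5 males and 0 to 0.0264 units in the other 3 females. In WT livers all 3 females lay above both males in Clec4f, Vsig4 and Marco. The WT males (replicates 4 and 5) also had fewer estimated reads, 12.7 and 12.2 M, against 19.3 to 19.7 M in the WT females. Sex and depth cannot be told apart among the WT livers. In the fit with sex and genotype no member was called for sex: the log2 difference, male minus female, was -0.61 for Marco (limma adjusted p = 0.349), -0.32 for Vsig4 (0.361) and -0.21 for Clec4f (0.597). With sex in the model 7 of 8 members were again called higher, and no member was called for an interaction of sex and genotype. With 1 KO female, differences of the genotype effect between the sexes rest on that animal.

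Of 13 further Kupffer cell genes, all of them tested, 9 were called higher and 0 lower, with a median log2 fold change of 0.65. The counts of this and the following lists stand beside 21.4% called higher and 14.5% called lower over all tested transcripts. The complement genes C1qa, C1qb and C1qc, which tissue macrophages make in quantity, stood at 2.20 to 2.35 times the WT level: C1qa averaged 81.2 ± 6.07 units in KO and 36.2 ± 3.35 units in WT livers (SD, n = 4 and 5, limma adjusted p = 1.53e-05). Cd207, encoding langerin, averaged 11.1 ± 1.70 units in KO and 4.75 ± 0.751 units in WT livers (limma adjusted p = 0.000242). Clec1b, Cd163, Slc40a1 and Cd38 were not called.

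Of 12 genes listed for monocytes and recruited macrophages, 7 were tested and 7 called higher, with a median log2 fold change of 1.43. The list is not particular to cells newly arrived from blood, and which cells made these transcripts was not tested. Of these 7, Ly6c2, Ccr2 and Ms4a7 had WT means below 1 unit and entered the fit through their KO level, and 4 of the remaining 4 were called higher. Cd14, the lipopolysaccharide co-receptor, averaged 29.6 ± 5.996 units in KO and 2.94 ± 0.542 units in WT livers (SD, n = 4 and 5), 10.1 times the WT level (limma adjusted p = 1.91e-06). Plac8 averaged 82.2 ± 9.02 units in KO and 25.1 ± 1.86 units in WT livers (limma adjusted p = 2.57e-06). Ccr2, the Ccl2 receptor of inflammatory monocytes, averaged 3.84 ± 0.225 units in KO and 0.810 ± 0.270 units in WT livers (limma adjusted p = 2.82e-05). Ms4a6c averaged 9.06 ± 1.09 units in KO and 3.68 ± 0.658 units in WT livers (limma adjusted p = 0.000106).

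Among chemoattractants and their receptors, 5 of 6 tested genes of 12 listed were called higher, with a median log2 fold change of 0.70. Ccl2, the ligand of Ccr2, averaged 15.2 ± 2.86 units in KO and 1.29 ± 0.351 units in WT livers (SD, n = 4 and 5), 11.8 times the WT level (limma adjusted p = 1.71e-06). Cxcl10 averaged 13.04 ± 1.11 units in KO and 5.44 ± 1.43 units in WT livers (limma adjusted p = 0.000504). Ccl6 stood at 1.49 times the WT level (limma adjusted p = 0.0104), read from a listed transcript annotated as a retained intron form. The fractalkine pair, named after its values were seen, was too low for the fit. Its ligand Cx3cl1 averaged 1.67 ± 0.298 units in KO and 0.121 ± 0.0352 units in WT livers, and its receptor Cx3cr1 averaged 1.21 ± 0.140 units in KO and 0.142 ± 0.0425 units in WT livers. The authors' deposited table gives q = 1.2e-06 for Cx3cl1 and q = 0.00679 for Cx3cr1.

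Genes of the lipid- and scar-associated macrophage state were called higher in 9 of 14 tested (16 listed) and lower in 0, with a median log2 fold change of 0.92. Ctsk, 1 of the 9, entered the fit through its KO level, and among genes with a WT mean of at least 1 unit the count was 8 of 13. Spp1, encoding osteopontin, averaged 709.5 ± 188.5 units in KO and 40.6 ± 10.4 units in WT livers (SD, n = 4 and 5), 17.5 times the WT level (limma adjusted p = 1.71e-06). The tetraspanin genes Cd63 and Cd9 averaged 88.8 ± 5.33 and 72.7 ± 9.38 units in KO livers, against 8.52 ± 2.06 and 22.8 ± 5.47 units in WT livers (limma adjusted p = 7.10e-07 and 0.000131). The lysosomal gene Pld3 stood at 2.02 times the WT level (limma adjusted p = 7.22e-05). Spp1, Cd63 and Cd9 are also expressed by bile duct cells and other non-macrophage cells. Gpnmb, which with Trem2 is the most used marker of the state, showed no detectable difference, as given above.

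Receptors and opsonins of phagocytosis moved in a mixed way: 6 of 14 were called higher and 1 lower, with a median log2 fold change of 0.03. Gas6, the bridging ligand of the Axl and Mertk receptors, averaged 51.2 ± 3.99 units in KO and 12.0 ± 1.48 units in WT livers (SD, n = 4 and 5, limma adjusted p = 1.26e-06). Axl averaged 9.04 ± 1.24 units in KO and 4.72 ± 0.382 units in WT livers (limma adjusted p = 0.000223). Fcer1g, the signalling chain shared by Fc receptors, stood at 2.02 times the WT level (limma adjusted p = 0.000176), and the leukocyte integrin gene Itgb2 at 2.88 times (limma adjusted p = 0.000833). Lamp2, a lysosomal membrane gene active in hepatocytes too, was called lower at 0.753 times the WT level (limma adjusted p = 0.00713), but not with equal totals (0.943) or in males alone (0.105). Mrc1, Mertk and Msr1 were not called.

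Of 18 lineage and growth factor genes, 8 were called higher and 0 lower, with a median log2 fold change of 0.43. Spi1, which encodes PU.1, averaged 3.89 ± 0.247 units in KO and 2.06 ± 0.364 units in WT livers (SD, n = 4 and 5, limma adjusted p = 0.00107). Csf1r, the survival receptor of macrophages, averaged 19.1 ± 2.29 units in KO and 9.50 ± 1.91 units in WT livers (limma adjusted p = 0.000702). Irf8, a monocyte lineage factor, stood at 2.30 times and Csf2ra, a chain of the GM-CSF receptor, at 3.12 times the WT level (limma adjusted p = 0.000224 and 0.000161). The Kupffer cell factors Nr1h3, encoding LXR alpha, and Spic were not called. In the same list Zeb2 and Id1, named after their values were seen, were called higher (limma adjusted p = 0.0297 and 0.0495). Neither was called in males alone (limma adjusted p = 0.273 and 0.122), and the authors' deposited table gives q = 0.771 and 0.0994. Macrophage cytokines were mostly too low: of 9 listed, 4 were tested and 2 called higher. These were Tgfb1 at 1.98 times (limma adjusted p = 0.00269) and Il1rn, the interleukin-1 receptor antagonist, at 2.74 times the WT level (limma adjusted p = 0.0231). Il1rn ranged from 0.225 to 5.24 units in WT livers and had q = 0.138 in the authors' deposited table. Il1b and Il18 were not called.

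**Figure D5:**
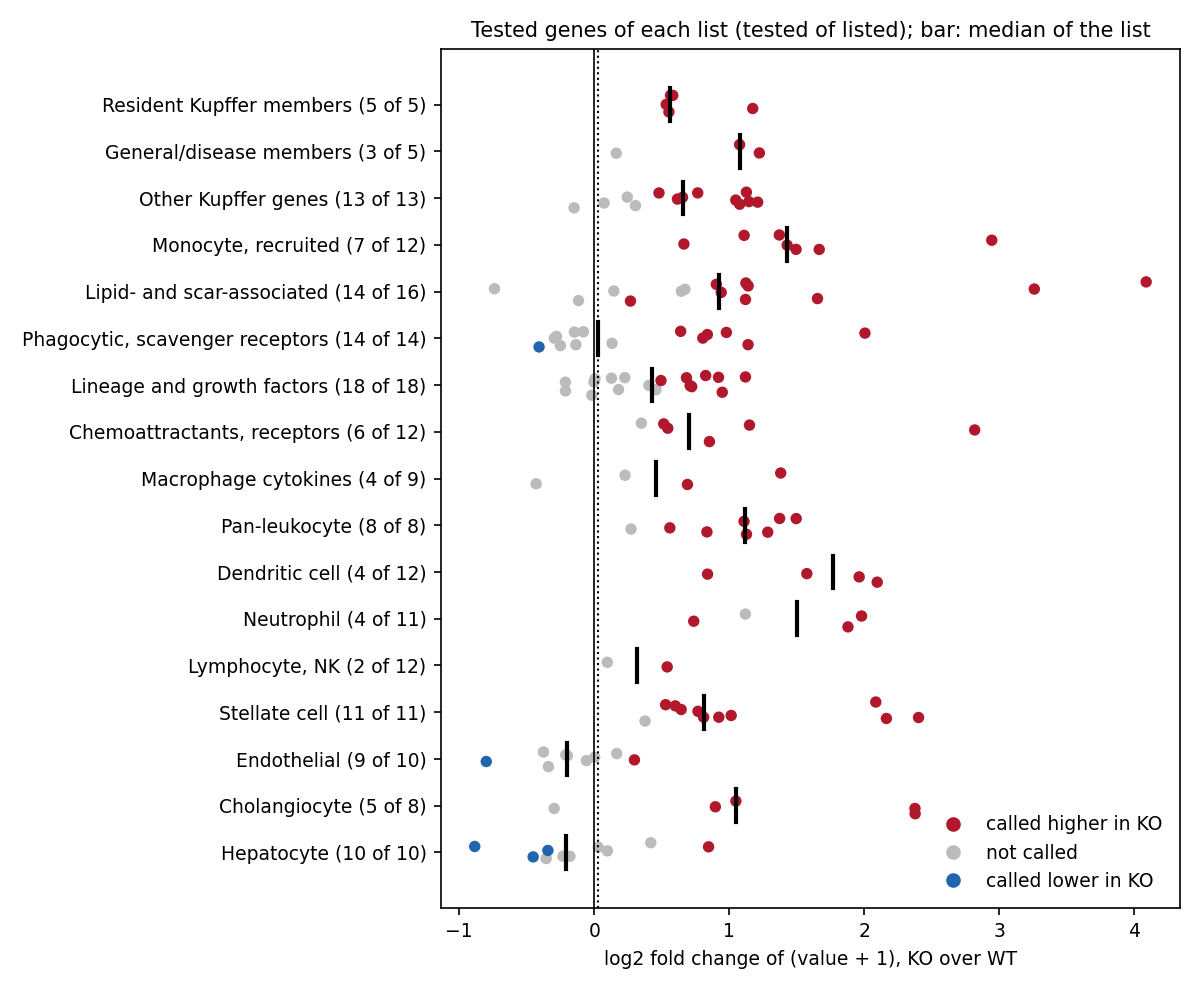
Log2 fold change of (value + 1), KO over WT, of each tested gene in 17 lists, coloured by call, with a bar at the list's median; the dotted line is the median of all tested transcripts (0.03), and brackets give tested of listed genes. The monocyte list has its median at 1.43, the resident members at 0.57, and the endothelial and hepatocyte lists at -0.20 and -0.21. In the monocyte list 3 of 7 tested genes, and in the cholangiocyte list 4 of 5, had WT means below 1 unit. These entered through their KO level, which raises the medians of both lists, so they are not comparable with that of the resident members.

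Markers of other cells moved with the macrophage genes. Of 8 pan-leukocyte genes 7 were called higher, and their summed level was 118.9 to 139.0 units in KO and 58.9 to 72.3 units in WT livers. Coro1a, an actin-binding protein of leukocytes, averaged 9.75 ± 2.11 units in KO and 2.80 ± 0.624 units in WT livers (SD, n = 4 and 5, limma adjusted p = 9.33e-05), and Laptm5, Arhgdib and Cd52 were called higher at 2.41 to 2.47 times the WT level. The dendritic cell list had 4 of 12 genes tested and 4 called higher: the antigen presentation genes Cd74 (222.6 ± 36.0 units in KO and 51.3 ± 8.71 units in WT livers, limma adjusted p = 8.23e-06), H2-Ab1 and H2-Aa, which macrophages express too, and Batf3. Batf3 had a WT mean below 1 unit and entered the fit through its KO level, which leaves 3 of 3 without it. Markers more particular to dendritic cells were too low for the fit. Among them, named after their values were seen, Siglech of plasmacytoid cells averaged 0.183 ± 0.298 units in KO and 0.620 ± 0.124 units in WT livers (SD, n = 4 and 5), with q = 0.0357 in the authors' deposited table, and Zbtb46 averaged 0.737 ± 0.137 units in KO and 0.834 ± 0.130 units in WT livers (q = 0.704 in the authors' deposited table). The list's summed level was 402.7 to 609.3 units in KO and 109.0 to 188.8 units in WT livers.

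Neutrophil genes were called higher in 3 of 4 tested (11 listed), and in 2 of 3 without Csf3r, which entered the fit through its KO level. S100a8 was at 29.0, 30.5, 50.2 and 67.1 units in KO livers, against 9.46, 7.41, 8.25, 6.11 and 34.8 units in WT livers, so that WT replicate 5 overlapped the KO group. S100a8 and S100a9 were not called in males alone (limma adjusted p = 0.165 and 0.130), nor was Csf3r (0.0526). The neutrophil marker Ly6g was listed at 0 in 7 of the 9 libraries. Lymphocyte genes were low, with 2 of 12 tested and Gzma called higher at 1.74 times the WT level (limma adjusted p = 0.0198, males alone 0.0798).

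Stellate cell genes were called higher in 10 of 11, and in 9 of 10 without Des, whose WT mean was below 1 unit. Among them was Col1a1 at 8.40 ± 1.04 units in KO and 1.10 ± 0.278 units in WT livers (SD, n = 4 and 5, limma adjusted p = 2.59e-06). Col1a2, Col3a1 and Pdgfrb were called higher as well. The 11 stellate cell genes summed to 263.1 to 311.4 units in KO and 121.6 to 214.0 units in WT livers. The largest part of that sum was Dcn, the stellate cell gene not called (limma adjusted p = 0.144). Dcn averaged 167.9 ± 23.6 units in KO and 131.5 ± 32.3 units in WT livers. Cholangiocyte genes were called higher in 4 of 5 tested (8 listed), and these 4, Epcam, Cldn7, Krt19 and Sox9, had WT means below 1 unit and entered the fit through their KO level. Among genes with a WT mean of at least 1 unit 0 of 1 was called, so the count of 4 is fixed by the minimum and is given as a description. Their list summed to 20.2 to 25.6 units in KO and 4.54 to 6.08 units in WT livers.

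Endothelial genes did not follow. Of 9 tested, Cdh5 was called higher at 1.26 times the WT level (limma adjusted p = 0.0127). The sinusoidal marker Lyve1 was called lower at 0.406 times (limma adjusted p = 0.00782), and neither was called in males alone. The endothelial and hepatocyte counts stand beside 21.4% higher and 14.5% lower over all tested transcripts, and a departure from these shares was not tested. Of 10 hepatocyte genes, Tat was called higher (limma adjusted p = 0.0381, 0.0738 with sex in the model), and F9, Apoa1 and Asgr1 were called lower. Of these 3 lower genes, F9 was still called in males alone (limma adjusted p = 0.00441) and the other two were not. With equal totals, F9 was still called lower, and Lyve1, Apoa1 and Asgr1 were not called. No gene of the lists was at 0 in every library. The part of leukocytes other than macrophages, of stellate cells and of bile duct cells in the macrophage values was not tested.

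Direct sites of the deleted microRNA were also looked for. The words ACACTCC and CACTCCA, which pair with the seed of miR-122, were searched on the sense strand of the annotated 3′ UTR of each listed transcript with at least 50 UTR bases (GENCODE M21). They lay in 0 of the 9 members with such a UTR, Trem2 having none in its listed form, against 13.1% of the listed transcripts. The members' UTRs ran from 121 bases in Marco to 1868 bases in Gpnmb, and no correction for length was made. With 9 UTRs a count of 0 does not set the members apart from that share, and a departure from it was not tested.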

How the data were processed

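PolyA RNA of 4 KO and 5 WT livers was analysed from 1 table of the whole series. The submitters' processing notes name kallisto, sleuth and mm10 with no version. The authors deposited, per library, a length-scaled abundance divided by a library factor, treated here as a normalised signal, since the totals differ between libraries and so are not TPM. The deposited p-value and q-value columns cover 13540 transcripts, and the deposited coefficient is on a natural log scale, WT minus KO. The design had foreseen such abundances.

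Columns were matched to samples by mouse identifier. The column of WT replicate 3 names a male, while its label, which was kept, says female. Each library is 1 animal. No library pair was identical (highest Pearson r of log2 values 0.981). Reads were estimated from the steps of low values, of which 54.6% to 66.0% were whole within 0.1 read, so no count test was used. The labels do not say how 1 transcript per gene was picked. For 1507 of 21457 protein-coding genes it is annotated as another type.

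The fit took the 10950 transcripts with a mean of at least 1, as log2(value + 1), in limma 3.58.1 in R 4.3.3. Genotype was the single term, the prior variance followed a trend, and p was adjusted over all of them by Benjamini-Hochberg at 0.05. Log2 fold changes on this scale are too small for low transcripts, whereas "times the WT level" means a ratio of mean levels. The fit was tested on simulated data of 10950 transcripts with the same group sizes, where it recovered 76.5% of 200 log2 changes of 1, with 7 false among 160 calls. Errors there were independent between transcripts, and far fewer transcripts changed than were called in the data. The rates therefore do not carry over to the members, of which Clec4f, Timd4, Vsig4 and Cd5l changed by 0.53 to 0.58. Single values were compared by exact permutation tests with scipy 1.17.1. Members, lists and tests were chosen with earlier results of these data known. Besides all members, the text names up to 4 called genes per direction with the smallest adjusted p in each list, and the 5 transcripts most like Clec4f and Cd68. Where genes are said not to be called, they were named after their values were seen. A gene that the rule would name is not reported here. Sequences come from RefSeq (GRCm38.p6). Alternatives were other filters, pseudocounts, scalings, covariates, thresholds and sample sets.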

Additional observations from a re-analysis of the deposited data

Results flagged for a closer look

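Lyz2 in KO replicate 4 stood at 213.7 units, apart from the other KO livers at 195.5, 196.6 and 193.3 units. Its gap to the nearest of them was larger than Dixon's 95% critical value for 4 samples allows. Chance flags about 1 in 20 such groups. The value lies on the far side from the WT livers, and without that library Lyz2 was still called higher.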

How the results depend on the processing

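The members kept their direction under every alternative run. Of 10 members, 7 were called higher, with 6 to 7 when each library was left out in turn, 5 in males alone, 6 at a threshold of 0.01 and 8 with equal totals. Clec4f, Vsig4, Marco, Lyz2 and Cd68 were called under every alternative that tested them, Timd4 in 23 of 24 and Cd5l in 19 of 24. Over all transcripts 3934 were called, 2589 with a minimum mean of 5, 2216 in males alone, 2362 at a threshold of 0.01, and 3170 to 3996 when each library was left out. The split was 2345 higher and 1589 lower, against 4926 and 298 with equal totals and 1933 and 2178 with median ratio scaling. Of 129 tested genes in the wider lists 82 were called, 50 with a minimum mean of 5 (fewer genes tested), and 72 to 79 when each library was left out. The authors' deposited q called 69 of 156 list genes. Among named list genes called here, it was above 0.05 for Gzma (0.432), Batf3 (0.162), Il1rn (0.138), Apoa1 (0.108) and Tat (0.0786). It was also above 0.05 for Krt19 (0.0667), Cdh5 (0.0595), Ccl6 (0.0561) and Csf3r (0.0508), and for Zeb2 and Id1 as given above. Livers of equal replicate number were not alike throughout (r of deviations 0.23, 0.08, -0.18 and 0.11). KO replicate 1 had r of 0.23 and 0.19 with WT replicates 1 and 2, and -0.19 and -0.27 with WT replicates 4 and 5. KO replicate 4 went the other way, with -0.23 and -0.16 against 0.11 and 0.20. KO replicate 2 had the signs of KO replicate 1, and KO replicate 3 those of KO replicate 4. A litter or batch shared across the genotypes was not tested. With the replicate block, 3557 transcripts, 77 list genes and 6 members were called, and Cd5l had a limma adjusted p of 0.0575. Depth limits Gpnmb, Itgax in WT livers and the 47 list genes below the minimum. The limma p-values set the difference between genotypes against the spread between these animals.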
